A study of Mus musculus with 20 samples.

Results

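Adipose progenitor and fibroblast markers are described here as 9 genes chosen by name, Pdgfra, Pdgfrb, Dpp4, Pi16, Cd34, Ly6a, Cd55, Icam1 and F3, out of 40440 gene entries counted in the study. All 9 were present in the count table and all 9 were tested in subcutaneous adipose tissue (SAT), whereas Pi16 had too few reads to be tested in liver. Male C57BL/6J mice had surgery at 8 to 9 months of age, and the surgery either took out the epididymal visceral adipose tissue (VAT) pads or, in the sham group, opened the abdomen without taking any fat. Both groups received a high-fat diet afterwards, and no group on another diet was analysed here. Each of the 4 groups, sham liver, VAT removed liver, sham SAT and VAT removed SAT, had 5 libraries of ribosome-depleted total RNA from the whole tissue. The labels name no cell sorting and do not say that RNA was pooled. They also do not state that the 5 libraries of a group came from 5 different mice, so the p-values measure the spread between libraries, which may in part be technical.

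White fat contains, besides adipocytes, a stroma of fibroblast-like cells around vessels and in the connective tissue layer between lobules. Adipocytes form from progenitors in that stroma, which carry PDGFRA and, in part, PDGFRB, the receptors for platelet-derived growth factors. In mouse subcutaneous fat the cells of the fibrous interstitium are marked by DPP4, PI16 and CD55, the preadipocytes that are closer to adipocytes by ICAM1, and a population described as restraining adipogenesis by F3. CD34 and LY6A (SCA-1) are surface proteins used to sort adipose progenitors in general. In a whole-tissue RNA library, fewer cells of a type and less RNA per cell cannot be told apart.

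Total counts ran from 20307159 to 37572706 per liver library and from 27411596 to 43618452 per SAT library, and CPM values below are counts scaled to library size, adjusted within each tissue by the trimmed mean of M-values (TMM). Each tissue carried its own marker: Adipoq, the adiponectin gene, lay between 983 and 2356 CPM in SAT and at most at 0.352 CPM in liver, while Alb, the albumin gene, lay between 32476 and 53580 CPM in liver and at most at 31.1 CPM in SAT. In SAT, sham libraries 3 and 4 stood apart. The summed level of 12 lymphocyte genes, none of them at 0 in every SAT library, was 880 CPM in sham library 3 and 904 CPM in sham library 4, but 13.4 to 18.4 CPM in the other 3 sham libraries and 13.6 to 20.9 CPM after VAT removal. The summed level of 7 genes of lymph node stroma was 49.6 and 55.9 CPM in those 2 libraries against 6.18 to 18.0 CPM in the other sham libraries and 4.75 to 15.6 CPM after VAT removal. Among these 7, Glycam1, a gene of high endothelial venules, was at 12.2 and 13.0 CPM in the 2 libraries and at most at 0.37 CPM elsewhere, while Ccl21a, which has near-identical copies in the genome, was at 0 in every SAT library but sham library 3 (0.0606 CPM). The same 2 libraries had the lowest summed level of 16 general fibroblast genes, 11013 and 11315 CPM against 16647 to 22742 CPM in the other 8 SAT libraries. They also had the lowest summed level of 7 adipocyte genes, 8099 and 7074 CPM against 10722 to 15342 CPM elsewhere. The part of these libraries' makeup in the marker levels was not tested, and the tests of VAT removal in SAT are therefore given with and without them. VAT removed SAT library 2 held 26738 CPM of 10 skeletal muscle genes, against 37.4 to 2296 CPM in the other 9 SAT libraries.

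Neither PDGF receptor gene was called as different between the surgeries in SAT, which does not show that their levels were equal. Pdgfra, whose product marks nearly all adipose fibroblasts and progenitors, was at 144, 143, 68.4, 89.6 and 114 CPM in sham SAT libraries 1 to 5 and at 120, 119, 155, 96.3 and 144 CPM in the VAT removed libraries. Sham libraries 3 and 4 were the lowest of all 10, and the groups overlapped. Pdgfrb, whose product is shared by progenitors and the pericytes and smooth muscle cells of vessels, was at 172, 131, 127, 132 and 149 CPM in sham SAT and at 157, 168, 155, 168 and 152 CPM after VAT removal. It varied least of the 9 genes, with a standard deviation (SD) of 4.78% of the mean in the VAT removed group and 13.2% in the sham group. Again the groups overlapped, although every VAT removed value of Pdgfrb lay above the sham mean of 142 CPM. The log2 difference of VAT removed minus sham was 0.18 ± 0.21 (SE) for Pdgfra and 0.17 ± 0.10 for Pdgfrb. With sham libraries 3 and 4 left out, it was -0.08 ± 0.15 for Pdgfra and 0.08 ± 0.09 for Pdgfrb.

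The 3 markers of interstitial progenitors did not share one pattern across libraries. Pi16, which encodes a secreted peptidase inhibitor, covered the widest range of the 9 genes, with 417, 443, 30.7, 88.2 and 350 CPM in sham SAT and 312, 243, 262, 116 and 145 CPM after VAT removal. Sham library 3 was the lowest of all 10 and sham library 4 the next lowest, so the VAT removed libraries lay inside the sham range. The other 3 sham libraries all lay above the highest VAT removed library. Mean Pi16 was 266 ± 193 CPM (SD, n = 5) in the sham group and 403 ± 48.4 CPM (SD, n = 3) without its libraries 3 and 4. In the VAT removed group it was 216 ± 82.2 CPM (SD, n = 5).

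Dpp4, which encodes a membrane-bound dipeptidase that cleaves incretins and chemokines, was at 78.2, 69.3, 42.8, 44.6 and 53.5 CPM in sham SAT. After VAT removal it was at 68.4, 48.6, 53.5, 32.0 and 28.2 CPM. VAT removed libraries 4 and 5 were the lowest of the 10 for Dpp4 and the lowest of their group for Pi16, and the groups overlapped. Cd55, whose product (decay-accelerating factor) shields cells from complement, went the other way in the libraries that stand apart. It was at 86.9, 73.8, 117, 134 and 68.5 CPM in sham SAT, with libraries 3 and 4 the highest of all 10, and at 76.5, 73.9, 60.3, 56.0 and 65.9 CPM after VAT removal.

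The general progenitor markers were lowest in sham libraries 3 and 4 or close to it. Cd34, which encodes a sialomucin also found on endothelial cells, was at 182, 143, 78.6, 82.5 and 156 CPM in sham SAT. It was at 150, 131, 141, 130 and 128 CPM after VAT removal, where it varied by 6.82% of the mean. Ly6a, a GPI-anchored surface protein gene that is also used on endothelial and blood cells, was at 123, 105, 50.8, 66.1 and 136 CPM in sham SAT and at 81.4, 74.2, 91.7, 57.7 and 89.6 CPM after VAT removal. Without sham libraries 3 and 4 the remaining 3 sham values of Ly6a, like those of Pi16, all lay above all 5 VAT removed values.

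Icam1 and F3 moved in opposite directions in the libraries that stand apart. Icam1, the gene of an adhesion molecule that binds leukocyte integrins and is present on endothelium and leukocytes as well as on preadipocytes, was at 17.5, 14.6, 47.0, 45.2 and 15.4 CPM in sham SAT. It was at 23.5, 19.5, 17.2, 18.1 and 15.8 CPM after VAT removal, so that sham libraries 3 and 4 exceeded every other library. F3, the gene of tissue factor, which starts the extrinsic clotting cascade, was at 31.3, 49.4, 20.3, 12.8 and 32.0 CPM in sham SAT and at 28.5, 23.7, 38.3, 35.7 and 26.0 CPM after VAT removal. Sham libraries 4 and 3 held its lowest values, and the groups overlapped for both genes.

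**Figure D1:**
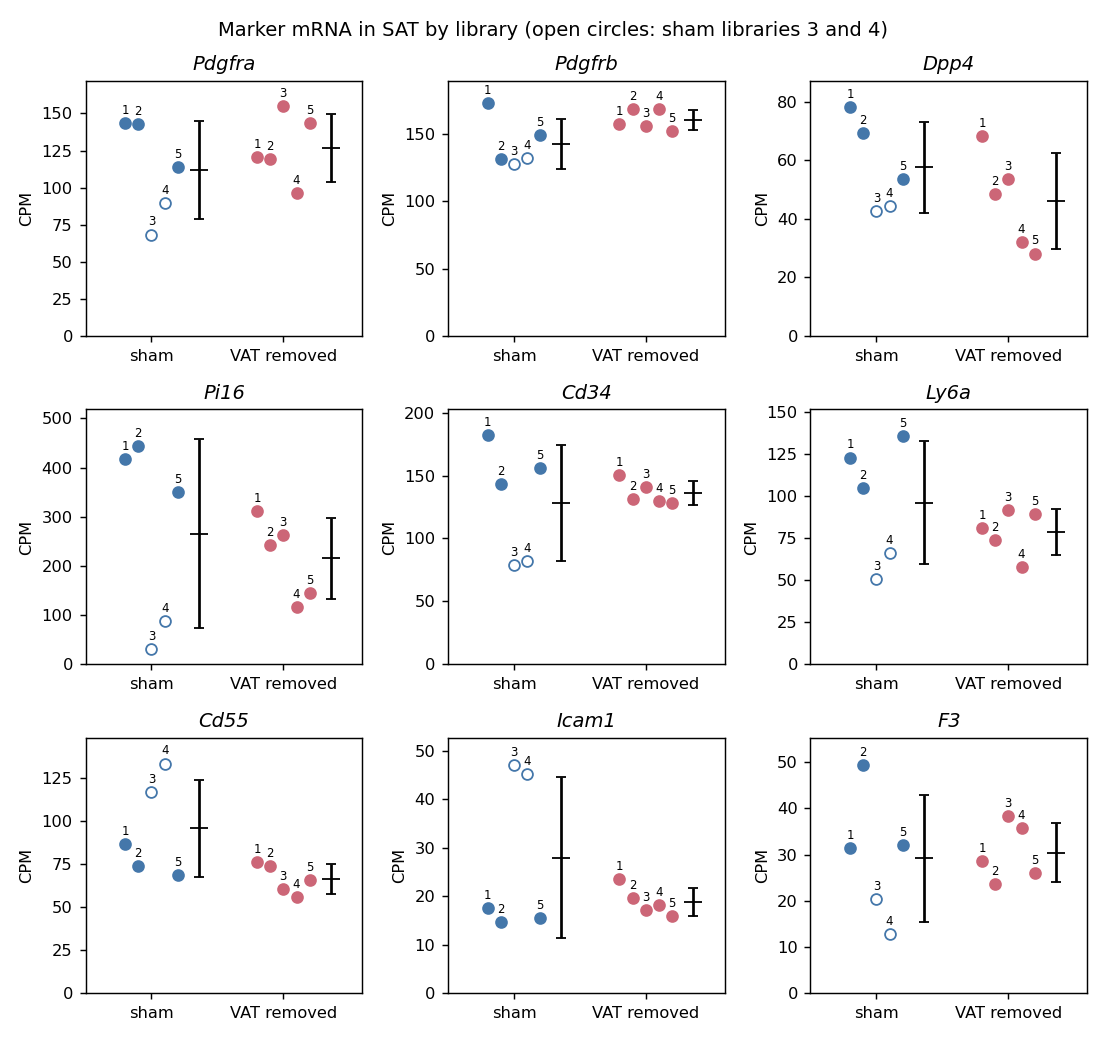
CPM of each marker gene (vertical axis, from 0) in the 5 sham and 5 VAT removed SAT libraries. Each point is a library with its number, open circles are sham libraries 3 and 4, and the bar beside each group is the mean with the SD. Those 2 libraries are the lowest for Pdgfra, Pi16, Cd34 and F3 and the highest for Cd55 and Icam1.

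VAT removal was not followed by a change past the threshold in any marker gene in SAT. By edgeR's quasi-likelihood test with Benjamini-Hochberg adjustment over 18530 genes, 0 of the 9 markers and 0% of all genes were called at an adjusted p of 0.05. DESeq2 called 200 genes, limma-voom with sample weights 0, and neither called a marker. At an unadjusted p under 0.05 edgeR had 1 of the 9 markers, Cd55, which was lower. That is a share close to the 10.6% of all genes at that p (6.27% lower and 4.38% higher). Over the 9 markers 4 differences were positive and 5 negative, with a median of -0.29 on the log2 scale, while 50.3% of all genes were negative and their median was -0.00. None of the 9 had groups that did not overlap, against 1.44% of all genes.

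Cd55 had the smallest p of the 9. Its log2 difference was -0.53 ± 0.19 (SE; 95% interval -0.94 to -0.12; adjusted p = 0.431 by edgeR), with each of the VAT removed libraries under the sham mean. Icam1 had a larger difference and a wider error, -0.57 ± 0.35 (adjusted p = 0.571 by edgeR). Dpp4 differed by -0.32 ± 0.26 (adjusted p = 0.671 by edgeR), Pi16 by -0.30 ± 0.63 and Ly6a by -0.29 ± 0.26. The interval for Pi16 ran from -1.70 to 1.10, the widest of the 9. Cd34 differed by 0.08 ± 0.22 and F3 by 0.06 ± 0.31.

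Leaving out sham libraries 3 and 4 turned the sign for Pdgfra, Cd34, Icam1 and F3 and moved several values, but called no marker. In that fit of 8 libraries edgeR called 0% of 19035 genes, and 3 of the 9 markers had an unadjusted p under 0.05, all 3 lower, against 8.77% of all genes (4.07% lower). Ly6a differed by -0.63 ± 0.15 (adjusted p = 0.555 by edgeR), a level 0.648 times that of the 3 sham libraries. Pi16 differed by -0.90 ± 0.31 (adjusted p = 0.555 by edgeR), or 0.534 times. Cd34 differed by -0.24 ± 0.09 (adjusted p = 0.561 by edgeR), with groups that overlapped. Ly6a and Pi16 were the 2 markers whose VAT removed values all lay under the remaining sham values, as did those of 2.83% of all genes.

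For the other 6 markers the 95% interval held 0 in the fit without sham libraries 3 and 4. Dpp4 differed by -0.54 ± 0.29, which was larger than with all libraries. Cd55, the marker with the smallest p over all 10 libraries, shrank to -0.20 ± 0.12 (adjusted p = 0.631 by edgeR). Icam1 turned to 0.25 ± 0.13 with 5 of 5 VAT removed libraries above the sham mean. F3 turned to -0.31 ± 0.20. Over the 9 markers 2 differences were positive and 7 negative, with a median of -0.24, whereas 47.6% of all genes were negative and their median was 0.01.

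**Figure D2:**
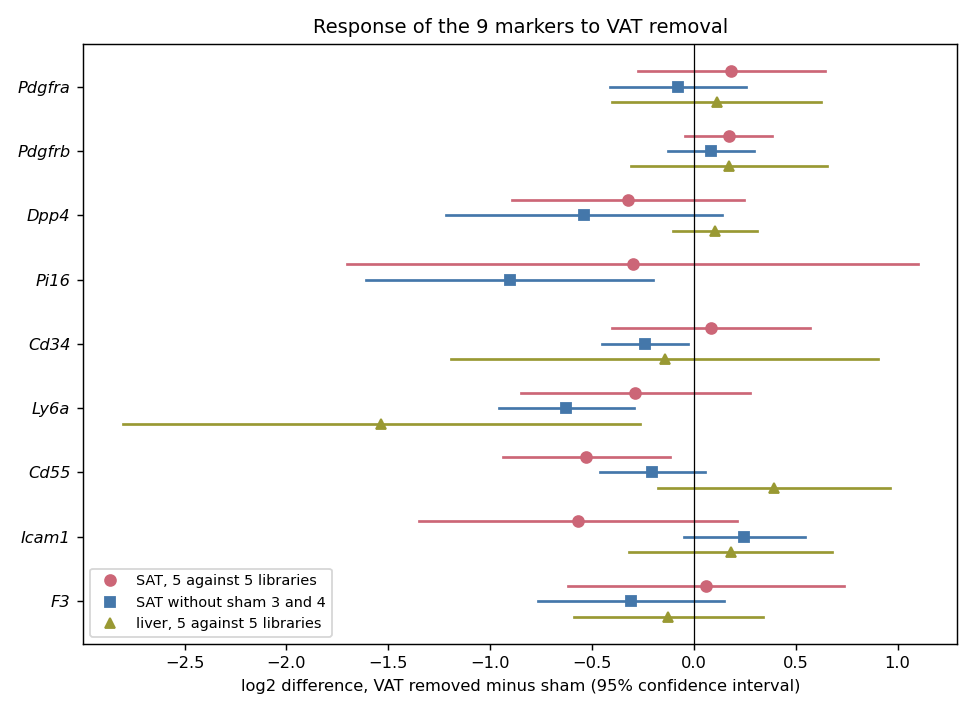
Log2 difference of VAT removed minus sham (horizontal axis) for each marker with its 95% confidence interval, in SAT with all 10 libraries (circles), in SAT without sham libraries 3 and 4 (squares) and in liver (triangles; Pi16 was not tested there). The intervals of Cd55 with all SAT libraries, of Pi16, Cd34 and Ly6a without the 2 libraries, and of Ly6a in liver leave out 0, and no adjusted p was under 0.05.

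Relative to Pdgfra, as a common denominator for the fibroblast-like stroma, Ly6a separated the groups in SAT. The ratio of Ly6a to Pdgfra CPM was 0.856, 0.738, 0.742, 0.738 and 1.19 in sham SAT and 0.676, 0.623, 0.592, 0.599 and 0.624 after VAT removal. Every VAT removed value lay under every sham value, sham libraries 3 and 4 included, although Ly6a itself overlapped between the groups. It was the 1 ratio of 9 computed in which the groups did not overlap, and it is given as a description, with no test. The share of all genes whose ratio to Pdgfra parts the groups was not computed, so the separation cannot be called particular to Ly6a.

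The ratio of Pi16 to Pdgfra did not separate them. It was 2.90, 3.11, 0.449, 0.985 and 3.06 in sham SAT and 2.59, 2.04, 1.69, 1.21 and 1.01 after VAT removal. Sham library 3 was far under the rest, and sham library 4 lay just under VAT removed library 5. Dpp4 over Pdgfra was 0.544, 0.486, 0.625, 0.497 and 0.469 in sham SAT, where libraries 3 and 4 were within or above the others, and 0.568, 0.409, 0.346, 0.332 and 0.196 after VAT removal. Thus 4 of 5 VAT removed libraries lay under all sham libraries and library 1 lay above 4 of 5. Icam1 over Pdgfra was 0.121, 0.102, 0.687, 0.505 and 0.135 in sham SAT and 0.110 to 0.195 after VAT removal, and it was high in sham libraries 3 and 4 alone.

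**Figure D3:**
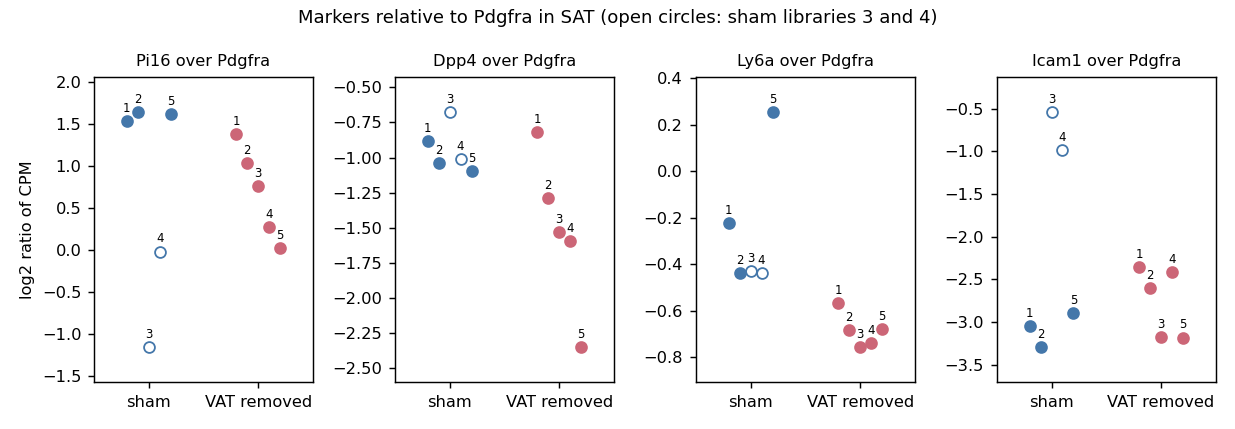
Log2 ratio of the CPM of Pi16, Dpp4, Ly6a and Icam1 to that of Pdgfra (vertical axis) in each SAT library, with open circles for sham libraries 3 and 4. The Ly6a ratios of the VAT removed libraries, 0.592 to 0.676 before the logarithm, lie under all 5 sham ratios, and the other 3 ratios overlap.

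The markers were compared by how alike their library profiles were in SAT. The measure was the root mean square (RMS) difference of centred log2 CPM over the 10 SAT libraries. It is also small between genes that vary little. Cd34 and Pdgfra were the nearest pair, at 0.224, followed by Cd34 and Ly6a at 0.268. Cd55 and Icam1 were at 0.312, and Pi16 and Icam1 were the farthest pair, at 1.64. Over the 8 libraries without sham 3 and 4 the nearest pair was Cd34 and Cd55, at 0.136, and Dpp4 and Pi16 came to 0.253 from 0.924. In those 8 libraries Cd34 lay 0.158 and Cd55 0.187 from a flat profile, while Dpp4 lay 0.489 and Pi16 0.648 from it. Cd34 and Cd55 were thus little nearer to each other than to no variation at all. Pdgfra, at 0.229 from Cd34 there, lay 0.214 from a flat profile. These are descriptions over libraries that share the 2 libraries standing apart.

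The genes most like single markers over all 10 SAT libraries were taken from 13612 genes with at least 1 CPM on average in SAT. For Pi16 they were Dact2 (0.385), Pcdh20 (0.399) and Fcna (0.403). Dact2 was at 65.5, 47.5, 7.54, 15.5 and 52.6 CPM in sham SAT and at 42.5, 31.2, 34.7, 28.0 and 18.6 CPM after VAT removal, so its lowest values were again in sham libraries 3 and 4. For Dpp4 they were Adra1b (0.224), Xpnpep2 (0.240) and Plau (0.241), and for Pdgfra they were Casp12 (0.106), Trf (0.107) and Pdgfd (0.113). The genes nearest to F3 were Car3 (0.114), Asns (0.141) and Fign (0.146). Those nearest to Icam1 were Grk6 (0.0962), Armc7 (0.0981) and Adcy7 (0.109), and Grk6 was at 173 and 166 CPM in sham libraries 3 and 4 against 52.7 to 73.7 CPM in the other 8. Without those 2 libraries the nearest were Prr5 (0.0735) for Pdgfra, Scara3 (0.169) for Dpp4, Krtdap (0.165) for Pi16, Btk (0.0676) for Icam1 and Fign (0.0849) for F3. No gene named above for Pdgfra, Dpp4 or Icam1 was among the 5 nearest there. Pcdh20 stayed among them for Pi16, and Car3, Asns and Fign for F3.

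The stretch before the start of transcription is shown for 3 markers that parted in sham libraries 3 and 4: Icam1 and Cd55, which were highest there, and F3, which was lowest. Each is the 250 bases upstream of the start in RefSeq on GRCm38.p6, 5′ to 3′ on the gene's strand, where 7 of the 9 markers had an entry. The Icam1 window is chr9:21015690-21015939 (plus strand), the Cd55 window chr1:130462745-130462994 (minus strand) and the F3 window chr3:121723287-121723536 (plus strand). Capitals mark matches, on either strand, to the letters searched: GGAAATTCC for NF-kappaB, TGANTCA for AP-1, TATAAA for the TATA box, GGGCGG for Sp1 and GGAATG for TEAD.
Icam1: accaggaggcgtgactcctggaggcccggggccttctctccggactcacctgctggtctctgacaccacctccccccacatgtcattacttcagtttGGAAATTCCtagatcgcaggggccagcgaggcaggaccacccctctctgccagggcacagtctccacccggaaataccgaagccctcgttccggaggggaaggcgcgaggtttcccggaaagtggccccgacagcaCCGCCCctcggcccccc
Cd55: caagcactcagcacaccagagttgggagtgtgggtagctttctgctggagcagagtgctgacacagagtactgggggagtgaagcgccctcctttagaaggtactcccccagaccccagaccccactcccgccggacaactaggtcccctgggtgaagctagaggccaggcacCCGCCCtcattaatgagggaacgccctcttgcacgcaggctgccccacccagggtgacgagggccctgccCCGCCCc
F3: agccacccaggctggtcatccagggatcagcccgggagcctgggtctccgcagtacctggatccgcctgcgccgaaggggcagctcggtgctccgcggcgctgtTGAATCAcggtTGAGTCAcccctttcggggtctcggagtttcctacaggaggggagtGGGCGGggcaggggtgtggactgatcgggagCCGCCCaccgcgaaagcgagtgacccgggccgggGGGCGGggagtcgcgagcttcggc
The Icam1 window held 1 match to the NF-kappaB letters, 153 bases before the start, and 1 to those of Sp1, while 0.286% of 32851 such windows held the former and 32.7% the latter. The Cd55 window held 2 matches to the Sp1 letters. The F3 window held 2 to the AP-1 letters, which 6.75% of windows held, and 3 to those of Sp1. The Dpp4 window held 1 match each to the TATA box and TEAD letters, found in 12.4% and 12.6% of windows. The windows of Pdgfra, Pi16 and Cd34 held none of the 5. A match of letters is a description and not a binding site.

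Genes of the pathways around Icam1 and F3 were read beside them. Of 7 genes for adhesion and NF-kappaB feedback, 0 were called by edgeR in SAT, 3 were higher and 4 lower, and 1, the platelet and endothelial adhesion gene Selp at 0.65 ± 0.22, had an unadjusted p under 0.05. Without sham libraries 3 and 4, 6 of the 7 were higher, with a median of 0.28, and Tnfaip3, which encodes the NF-kappaB inhibitor A20, differed by 0.43 ± 0.14 (adjusted p = 0.555 by edgeR). Tnfaip3 resembled Icam1 in the libraries that stand apart: 74.7 and 75.0 CPM in sham libraries 3 and 4 against 20.8 to 41.0 CPM in the other 8. Of 4 partners of tissue factor, the clotting factors and inhibitors F7, F10, Tfpi and Thbd, all 4 were higher and 0 were called. F7, which tissue factor activates, had the smallest p, at 0.62 ± 0.30. With sham libraries 3 and 4 left out, 3 of these 4 were higher and Thbd, the thrombomodulin gene, was at -0.28 ± 0.21.

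The ligands of the PDGF receptors were measured too. Of Pdgfa, Pdgfb, Pdgfc and Pdgfd, 0 were called by edgeR in SAT, and all 4 had positive differences with a median of 0.23. An unadjusted p under 0.05 was reached by 2 of them, both higher, and by 4.38% of all genes in that direction. Pdgfb, made mainly by endothelium and needed to recruit pericytes, was at 63.3, 35.5, 50.8, 55.0 and 69.0 CPM in sham SAT and at 69.4, 69.8, 65.9, 81.9 and 74.3 CPM after VAT removal. Its log2 difference was 0.40 ± 0.15 (adjusted p = 0.433 by edgeR), and Pdgfa differed by 0.32 ± 0.13. In the fit without sham libraries 3 and 4, 2 of the 4 ligands were positive and 2 negative, with a median of 0.05 and 0 at an unadjusted p under 0.05. There Pdgfb differed by 0.37 ± 0.19, Pdgfa by 0.23 ± 0.14 and Pdgfc by -0.29 ± 0.17. All 10 endothelial genes and 8 of 10 mural genes had positive differences as well, with medians of 0.27 and 0.28 and 0 called. Of these, 4 endothelial and 2 mural genes were higher at an unadjusted p under 0.05. Without the 2 libraries 9 of 10 and 7 of 10 were positive, with medians of 0.21 and 0.31. There 0 endothelial and 2 mural genes were higher at that p. The summed endothelial level was 909 to 1670 CPM in sham and 1334 to 1691 CPM after VAT removal, and its part in the values of Pdgfb, Cd34 and Icam1 was not tested.

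Wider lists of stromal genes showed how far the 9 markers resembled their cell classes. Of 14 interstitial progenitor genes, which do not include Dpp4, Pi16 or Cd55, 0 were called by edgeR in SAT, 8 were higher and 6 lower, with a median of 0.03. Cmah, an enzyme gene of sialic acid metabolism (-1.17 ± 0.36), and Smpd3, a sphingomyelinase gene (0.92 ± 0.40), were the 2 at an unadjusted p under 0.05. Without sham libraries 3 and 4, 11 of the 14 were lower, with a median of -0.38, 4 had an unadjusted p under 0.05, all 4 lower, and 3 lay under the sham libraries without overlap. Over all genes in that fit 4.07% were lower at that p and 2.83% lay under without overlap. Those 3 were Stmn4 at -1.30 ± 0.28, Dact2 at -0.84 ± 0.23 and Pcsk6, a proprotein convertase gene, at -0.34 ± 0.08 (adjusted p = 0.555 for each by edgeR). Stmn4 was at 2.49, 2.28, 0.48, 0.87 and 2.81 CPM in sham SAT and at 0.99, 0.85, 1.66, 0.73 and 0.85 CPM after VAT removal. Like Pi16, these genes were lowest in sham library 3, and with all libraries their groups overlapped.

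General fibroblast genes turned in the same way. Of 16, 14 had positive and 2 negative differences with all libraries, with a median of 0.18, and 3 positive and 13 negative without sham libraries 3 and 4, with a median of -0.13. In neither fit was any called by edgeR. With all libraries the smallest p values were those of Col1a1 (0.56 ± 0.19), which encodes a chain of type I collagen, and Thy1 (-0.70 ± 0.26), a surface protein shared by fibroblasts and T cells that was at 105 and 91.7 CPM in sham libraries 3 and 4 and at 33.9 to 59.7 CPM elsewhere. Without those libraries they were Mfap5 (-0.32 ± 0.09), Cd248 (-0.45 ± 0.14) and Serpinf1 (-0.28 ± 0.10). Of the 16 genes, only these 3 had groups that did not overlap, all 3 lower, against 6.02% of all genes (2.83% lower). In the same fit all 7 adipocyte genes were negative, with a median of -0.18, and 9 of 10 endothelial genes positive, where with all libraries all 7 adipocyte genes were positive, with a median of 0.08. The part of these cell types in the stromal values was not tested.

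Genes of the classes next to the interstitial progenitors were read in both fits. All 10 committed preadipocyte genes, the class that Icam1 marks, had positive differences with all libraries, with a median of 0.24 and 0 called, and 6 of 10 without sham libraries 3 and 4, with a median of 0.06. With all libraries the 7 adipocyte genes and the 10 endothelial genes were all positive too, whereas Icam1 itself was lower. Read from whole tissue, the list, which includes Pparg, Cd36, Fabp4 and Lpl, cannot be assigned to preadipocytes, and the part of other cells in it was not tested. Dlk1, a preadipocyte gene that inhibits adipogenesis, differed by 1.28 ± 0.43 (adjusted p = 0.431 by edgeR), from levels of 0.30 to 1.13 CPM in sham SAT and 0.55 to 2.28 CPM after VAT removal, and by 0.92 ± 0.44 without the 2 libraries. Of 7 genes of the regulatory population that F3 marks, 4 had positive and 3 negative differences, with a median of 0.08, and 0 were called. Without sham libraries 3 and 4, 2 were positive and 5 negative, with a median of -0.10. Vit, which encodes an extracellular matrix protein, differed by -0.61 ± 0.15 in that fit, with groups that did not overlap, and Gdf10, a gene of the TGF-beta superfamily, by -0.70 ± 0.22 (adjusted p = 0.555 for both by edgeR). Meox2, a homeobox gene of that list, differed by 0.29 ± 0.11 with all libraries and by 0.34 ± 0.12 without the 2. Without them its groups did not overlap either, with the VAT removed values above the sham values. Of the 7 genes, 1 thus lay under and 1 above without overlap, where 6.02% of all genes lay apart in 1 direction or the other.

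**Figure D4:**
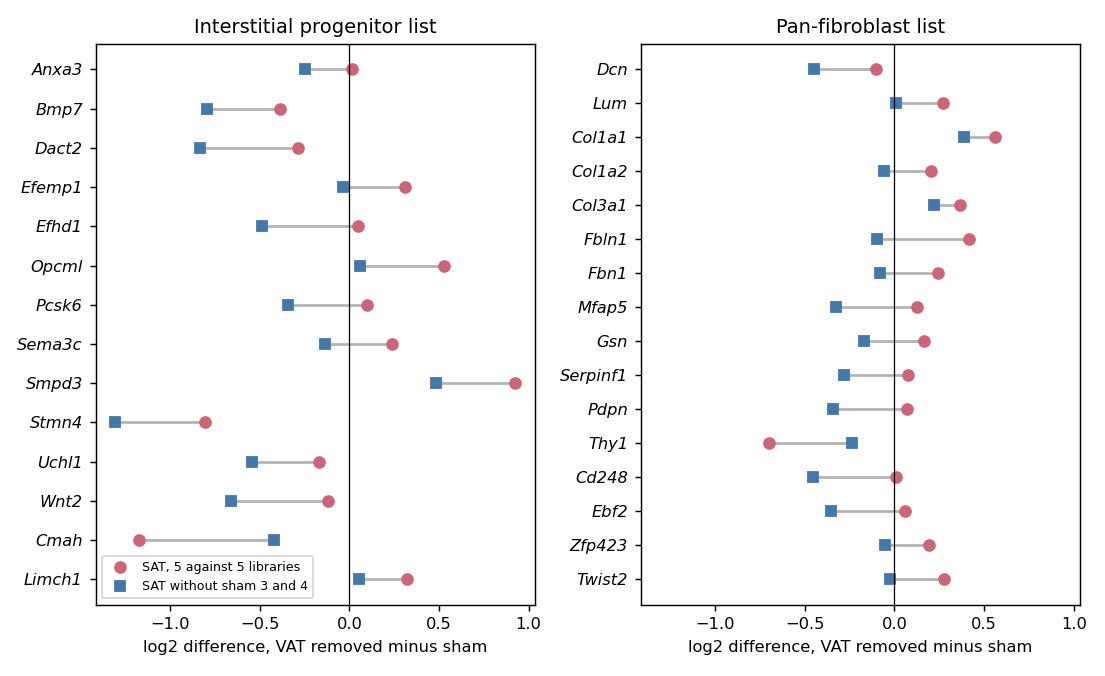
Log2 difference of VAT removed minus sham in SAT (horizontal axis) for 14 interstitial progenitor genes and 16 general fibroblast genes, with all 10 libraries (circles) and without sham libraries 3 and 4 (squares). Leaving the 2 libraries out moves the points to the left for all genes but Cmah and Thy1, and no gene was called in either fit.

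Per kb of exon, a scale on which genes can be compared, Ly6a was the most abundant marker in sham SAT at 79.9 CPM per kb, followed by Pi16 at 41.8, Pdgfrb at 26.0, Cd55 at 19.8, Cd34 at 17.6, F3 at 11.5, Pdgfra at 11.1, Dpp4 at 9.13 and Icam1 at 6.41 CPM per kb. After VAT removal the order was the same except that Cd34 (18.7) preceded Cd55 (13.7), and Pdgfra (12.7) preceded F3 (12.0). Without libraries 3 and 4 the sham order had Cd34 (22.0) before Cd55 (15.7) as well, Pi16 was at 63.4 and Icam1 at 3.63 CPM per kb. In sham SAT with all libraries the library values of every pair of neighbours in the order overlapped. In sham liver the order was another, with Dpp4 at 20.1, Ly6a at 12.4, Pdgfrb at 5.98, Icam1 at 3.86, Cd55 at 3.02, Pdgfra at 1.69, F3 at 1.35, Cd34 at 0.389 and Pi16 at 0.0442 CPM per kb. Only the steps from Cd55 to Pdgfra, from F3 to Cd34 and from Cd34 to Pi16 were free of overlap in sham liver.

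Between the tissues, 8 of the 9 markers differed in sham mice by edgeR's quasi-likelihood test in a fit of all 20 libraries, 7 higher in SAT and 1 lower, against 67.1% of 19954 genes (36.5% higher and 30.6% lower). Pi16 had the largest log2 difference of SAT minus liver, 9.25 ± 0.82 (adjusted p = 6.61e-09 by edgeR), and was at 0 to 0.573 CPM in sham liver, from 0 to 20 reads. Cd34 followed with 4.93 ± 0.42, F3 with 2.53 ± 0.29, Pdgfra with 2.16 ± 0.24, Cd55 with 2.15 ± 0.25, Ly6a with 2.14 ± 0.46 and Pdgfrb with 1.56 ± 0.18. Dpp4 was the marker lower in SAT, by -1.70 ± 0.21 (adjusted p = 6e-07 by edgeR), and it was at 107 to 140 CPM in sham liver, a tissue in which hepatocytes are known to carry it on the bile canaliculi. Icam1 differed by 0.17 ± 0.31 with all libraries and by -0.61 (adjusted p = 0.0314 by edgeR) without SAT sham libraries 3 and 4, and its adjusted p was 0.638 with them. The scaling of this joint fit is not that of the CPM values above, which are scaled within a tissue.

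**Figure D5:**
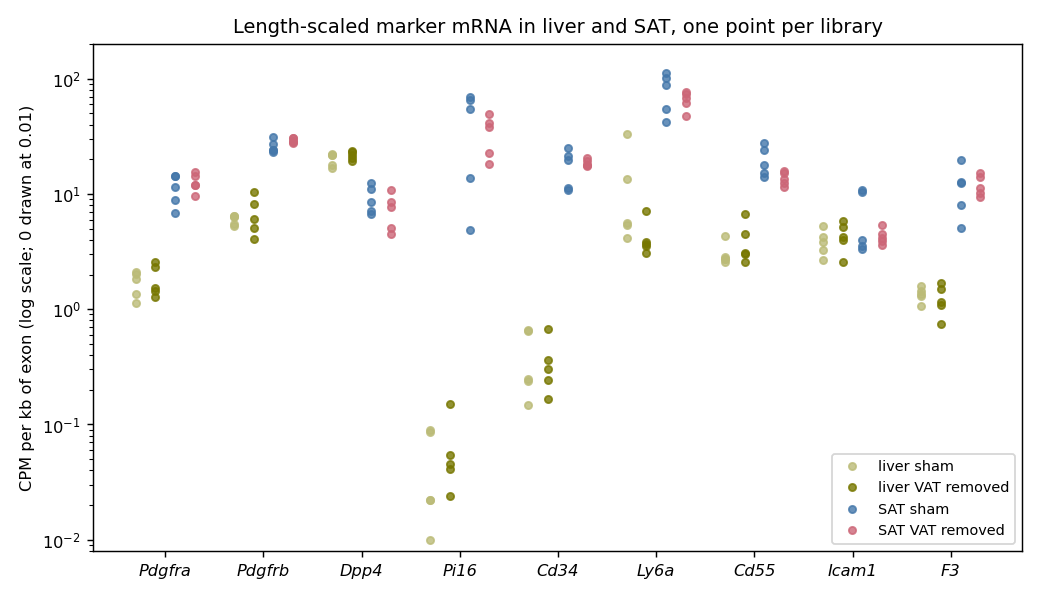
CPM per kb of exon (vertical axis, log scale, with 0 drawn at 0.01) of each marker in the 20 libraries, 1 point per library and 1 color per group of tissue and surgery. Pi16 and Cd34 lie under 1 CPM per kb in all liver libraries, and Dpp4 is the marker with its liver points above its SAT points.

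In liver, where the same receptors mark stellate cells and portal fibroblasts, VAT removal was likewise not followed by a change past the threshold. By edgeR's quasi-likelihood test 0 of the 8 tested markers and 0% of 17078 genes were called; DESeq2 called 199 genes, none of them a marker. At an unadjusted p under 0.05 there was 1 marker, Ly6a, against 9.9% of all genes (5.22% lower). Over the 8, 5 differences were positive and 3 negative, with a median of 0.11, while 47.8% of all genes were negative and their median was 0.01. None had groups that did not overlap, as 2.44% of all genes had.

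Ly6a was at 6.47, 16.1, 6.81, 4.95 and 40.1 CPM in sham liver and at 4.22, 4.62, 3.73, 4.46 and 8.55 CPM after VAT removal. Sham library 5 was far above the rest and sham library 2 was next. The log2 difference was -1.53 ± 0.57 (adjusted p = 0.424 by edgeR), with 0 of 5 VAT removed libraries above the sham mean, and it was -0.75 without sham library 5. Its relatives Ly6e and Ly6c1 differed in liver by -0.64 ± 0.31 and -0.76 ± 0.41.

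In liver Pdgfrb had a wider spread after VAT removal, with an SD of 37.4% of the mean against 9.37% after sham surgery. For Pdgfra the spreads were closer, 31.8% against 25.2%, and the difference in spread was not tested. Pdgfrb was at 28.8, 34.9, 35.1, 30.1 and 34.9 CPM in sham liver and at 22.2, 56.7, 27.8, 33.1 and 44.7 CPM in VAT removed liver, with both the lowest and the highest values in the latter group. Its log2 difference was 0.17 ± 0.22, and that of Pdgfra was 0.11 ± 0.23. All 9 stellate cell genes listed had positive differences in liver, with a median of 0.26 and 0 called. Dpp4 differed by 0.11 ± 0.09, Cd55 by 0.39 ± 0.26, Icam1 by 0.18 ± 0.23, Cd34 by -0.14 ± 0.48 and F3 by -0.13 ± 0.21. Pi16 had 0 to 20 reads per library in sham liver and 4 to 19 in VAT removed liver, and no comparison was made.

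The difference between the 2 responses, SAT minus liver, was called for 0 of the 9 markers and for 0% of 19954 genes by edgeR, while 10.1% of genes had an unadjusted p under 0.05. DESeq2 called 129 genes and no marker. The value for Cd55 was -0.92 ± 0.34 (adjusted p = 0.375 by edgeR), the marker with the smallest p, and -0.62 without SAT sham libraries 3 and 4. For Ly6a it was 1.23 ± 0.63 (adjusted p = 0.529 by edgeR), and 0.45 without sham liver library 5. For Icam1 it was -0.76 ± 0.44, and 0.05 without SAT sham libraries 3 and 4. The interval for Pi16 ran from -2.96 to 1.68, with both signs inside it.

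Reads of some markers could be shared with other genes, since neither the strand setting nor the rule for multiply mapped reads is stated. Ly6a (chr15:74994877-74998031, minus strand, GRCm38) had 19% of its 50-base exon runs in common with other genes, most of them with Ly6c1, which was at 114, 100, 53.7, 62.4 and 119 CPM in sham SAT and at 76.1 to 109 CPM after VAT removal. Ly6c1 thus resembled Ly6a in its low values in sham libraries 3 and 4. Its log2 difference was 0.03 with all libraries and -0.28 ± 0.12 without sham libraries 3 and 4, while Ly6a was lower in both fits and by more. Ly6e, another relative, differed by -0.54 ± 0.14 with all libraries (adjusted p = 0.431 by edgeR) and by -0.60 ± 0.15 without the 2. Cd55 (chr1:130439027-130462744, minus strand) shared 9.12% of its runs, 8% with its neighbour Cd55b, which differed by -0.55 ± 0.24. Cd55b was at 1.42 to 3.65 CPM in SAT.

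Icam1 (chr9:21015985-21028817, plus strand) shared 13.1% of its runs, 10.7% of all with Gm47079 on the opposite strand, whose exons cover 11.7% of the Icam1 exon bases. The values of Ly6a, Cd55 and Icam1 are uncertain for this reason. The shares of runs are not error sizes, which also depend on the level of the other gene and on the counting rule. The size of the effect on the counts was not tested. The other markers shared at most 4.93% of their runs. Among them, Pdgfra (chr5:75152292-75198215, plus strand), Dpp4 (chr2:62330073-62412231, minus strand), Pi16 (chr17:29317680-29330593, plus strand) and Cd34 (chr1:194938819-194961279, plus strand) each overlap an opposite-strand gene over 2.03% to 6.5% of their exon bases. F3 (chr3:121723537-121735048, plus strand) and Pdgfrb shared no run and overlap no exon.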

How the data were processed

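RNA of 10 liver and 10 SAT libraries was sequenced. Per the submitters' processing notes, bcl2fastq, STAR 2.5.1a, featureCounts 1.46 of Subread and the build GRCm38 were used. The annotation, the strand setting and the rule for multiply mapped reads are not stated in the sources used here. The authors deposited raw counts per gene without normalization. Of 40757 entries, 317 exact repeats were dropped.

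Groups were read from the sample titles, and each tissue was fitted alone with edgeR 4.0.16 under R 4.3.3 (filterByExpr by group, TMM, robust quasi-likelihood F-test, Benjamini-Hochberg over all genes tested, threshold 0.05). A fit of all 20 libraries with 4 group means gave the difference in response and the contrast of sham tissues, and treats liver and SAT libraries as separate mice. Intervals cover 95%. Alternatives were RLE normalization, limma-voom with sample weights (limma 3.58.1), DESeq2 1.42.0, other filters (none, or 1 CPM in 5 libraries), library number as a block, SAT without sham libraries 3 and 4, and leaving out each library. Fits were tested on simulated counts.

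The markers and the 19 gene lists were chosen with earlier results of these data known. Named besides the markers are genes past the threshold or else up to 3 with the smallest p per list, the 3 genes with the nearest profile (pseudocount 0.5 CPM) for 5 markers, and close relatives; Ccl21a, Glycam1, Adipoq, Alb and single values of further list genes were added after their values were seen. Coordinates and exon lengths come from GENCODE M21, promoters from RefSeq. Samples with equal numbers were not treated as pairs. Depth of 20307159 to 43618452 counts per library leaves counting error small beside the spread between libraries for the markers in SAT, which had at least 416 reads per library. In liver Pi16 (0 to 20 reads), F3 (37 to 132) and Cd34 (34 to 172) had few reads, and counting error is part of their spread. The same holds for list genes near 1 CPM, such as Dlk1 and Stmn4 in SAT.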

Additional observations from a re-analysis of the deposited data

Results flagged for a closer look

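Of 36 groups of 5 libraries searched, 1 per marker and group, 3 held a library far from the others, where chance gives about 1.8. Pi16 in VAT removed liver was at 0.958 CPM in library 3, from 19 reads, and the next highest library was at 0.344 CPM. Ly6a in VAT removed liver was at 8.55 CPM in library 5, next to 4.62 CPM. Cd55 in sham liver was at 20.9 CPM in library 4, next to 13.8 CPM. None of the 3 is in SAT, where sham libraries 3 and 4 lie together.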

How the results depend on the processing

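The number of markers called stayed at 0 in SAT, in liver and for the difference between them under every alternative run, and at 8 for sham SAT against sham liver except without SAT sham libraries 3 and 4, where it was 9. Counts over all genes depended on the tool: DESeq2 called 200 genes in SAT (49 higher, 151 lower), 199 in liver and 129 for the difference in response, against 0 by edgeR. In liver limma-voom with sample weights called 8, no filter 3 and the stricter filter 3. Leaving out 1 library gave 0 to 1 genes in SAT, 0 to 53 in liver (53 without VAT removed library 3, 2 without VAT removed library 2, 1 without VAT removed library 1), 0 to 3 for the difference (3 without VAT removed liver library 3, 1 each without sham liver library 2 and sham SAT library 5) and 12991 to 13583 between the tissues. The cause was not tested.

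Signs turned for several markers, among them Icam1, from -0.57 in SAT. There, limma-voom gave Cd34 -0.14, Icam1 0.010 and F3 -0.083. Without sham libraries 3 and 4, Pdgfra was -0.077, Cd34 -0.24, Icam1 0.25 and F3 -0.31. Without VAT removed library 2 as well, chosen after seeing the data, they were -0.054, -0.22, 0.24 and -0.23. Limma-voom gave Cd34 0.29 in liver. For the difference in response Pdgfrb was 0.033 by DESeq2 and 0.032 with RLE normalization, limma-voom gave Pdgfra -0.14 and Cd34 -0.41, and leaving out SAT sham libraries 3 and 4 gave Pdgfra -0.21, Cd34 -0.11, Icam1 0.050 and F3 -0.20. Between the sham tissues Icam1 was -0.37 by limma-voom and -0.61 without those libraries.

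Over fits that leave out 1 library, Cd34 ran from -0.058 to 0.24 and F3 from -0.13 to 0.33 in SAT. In liver Pdgfra ran from -0.042 to 0.22, Pdgfrb from -0.036 to 0.31, Cd34 from -0.53 to 0.13 and F3 from -0.26 to 0.0035. For the difference in response Pdgfra ran from -0.075 to 0.22, Pdgfrb from -0.15 to 0.20, Cd34 from -0.064 to 0.61 and F3 from -0.011 to 0.46, and Icam1 between sham tissues from -0.092 to 0.34.

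Within a tissue, library numbers did not clearly pair sham with VAT removed samples. Deviations of equal numbers correlated at -0.284 to 0.418 in SAT (2 of 5 over 0.1) and -0.0745 to 0.228 in liver (4 of 5). In SAT 1 of 5 and in liver 3 of 5 libraries were nearest to their own number. Between VAT removed liver and VAT removed SAT all 5 were nearest to their own number, at 0.0507 to 0.117, and between the sham tissues 0 of 5, so the joint fit's treatment of liver and SAT libraries as separate mice is an assumption. With the number as a block, edgeR again called 0 genes in SAT, 0 in liver, 0 for the difference and 13145 between the tissues; Pi16 in SAT was 0.054 and the difference for Pdgfrb was 0.021. Depth limits the values of Pi16 in liver most, where counts were 0 to 20, and to a lesser degree those of F3 and Cd34 there.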
